A study of Xenopus tropicalis with 39 samples.

Results

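The 100 gene models described here carried the strongest vegetal bias of RNA in 8-cell Xenopus tropicalis embryos. They were chosen from these data. Of 26550 gene models with Xetrov9 identifiers, 7981 had a mean abundance of at least 10 TPM (a length-scaled abundance of transcripts with the same total in each library) over 3 vegetal blastomere libraries. These were ranked by the smallest of their 3 ratios of vegetal to animal TPM (1 added to both values), taken within replicates 1, 2 and 3, and the first 100 were kept. The 8-cell values therefore define the members and are given as a description, with no test. The levels in caps and masses at stage 10.5 were not used to choose them.

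In Xenopus, some maternal RNAs are moved to the vegetal cortex of the growing oocyte and are inherited by the vegetal blastomeres, where they include determinants of endoderm and components of the germ plasm. Vegt, a T-box transcription factor needed for endoderm, is encoded by such an RNA, and Otx1 is a homeodomain transcription factor. The deposited tables pair no identifier with a gene symbol, and 0 of the 100 members were found in the reference table of 28858 genes, so members are named by identifier or rank and no role is given to any of them. For the same reason the labelled tissues were not checked against named marker genes.

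The 33 RNA libraries came from polyA RNA of whole or dissected embryos, and the labels name no strain, transgene or mutant allele. At the 8-cell stage, animal blastomeres, vegetal blastomeres and whole embryos were sampled in triplicate (n = 3 each), with no injection. Animal caps, which are prospective ectoderm, formed 8 groups (n = 2 each). Besides uninjected caps there were caps of embryos that had received vegt RNA at 50, 100, 200 or 500 ng, and caps with 100 ng of vegt RNA plus otx1 RNA at 25, 50 or 100 ng. The unit is given as in the labels; ratios between amounts do not depend on it. Vegetal masses, the prospective endoderm, formed 4 groups (n = 2 each): uninjected, and injected with a morpholino for Vegt (Vegt MO), for Otx1 (Otx1 MO) or with both together (Double MO). Morpholinos are synthetic antisense oligomers that keep a target RNA from being translated or spliced. RNA and morpholinos were injected at the 1-cell stage. All explants were dissected at stage 9 and harvested at stage 10.5, or 7 hours after fertilization; the titles of the masses say stage 10. The labels name no control RNA or control morpholino. Nothing in the labels gives the number of embryos in a library.

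Depth, as the sum of estimated counts, ran from 9005402 to 17210721 in the 9 libraries of the 8-cell stage, from 8289954 to 18201303 in the 16 caps and from 10906279 to 16379814 in the 8 masses. The members held between 47672 and 617500 of these counts in a library, and at most 3 members were at 0 in any library. Of all features, 43.7%, 58.1% and 64.3% were at 0 in vegetal replicates 1, 2 and 3, and 43.5%, 50.9% and 48.4% in the animal ones. Vegetal replicate 3 had the lowest depth of the 8-cell libraries. The libraries behind the ranking were thus uneven. The 3 tables were normalized separately, so a level set across tables has no test, and tissue and experiment cannot be told apart there. In bulk samples, fewer cells of a type and less RNA per cell cannot be told apart either.

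At the 8-cell stage the 100 members together held 2.12% ± 0.21 of all TPM in vegetal blastomeres (SD, n = 3), 1.13% ± 0.11 in whole embryos and 0.330% ± 0.047 in animal blastomeres. The lowest vegetal library, at 1.96%, was above the highest whole-embryo library, at 1.23%, which was above the highest animal library, at 0.383%. A member had a median of 114 TPM in vegetal blastomeres and 15.4 TPM in animal blastomeres, and the median ratio was 5.15 (range 2.43 to 129). Among the 7881 other models the median ratio was 0.991. The other models had a median of 46.7 TPM in vegetal blastomeres, a level that enters the ranking ratio, and of 47.7 TPM in animal blastomeres. In whole embryos, which the ranking did not use, the median was 60.1 TPM for members and 50.4 TPM for the other models.

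Xetrov90030636m.g ranked first. It had 613, 1119.8 and 1157 TPM in the 3 vegetal libraries, 5.09, 9.68 and 4.6 TPM in the animal libraries, and 287, 366 and 405 TPM in whole embryos. Xetrov90012705m.g ranked next, with 349, 429.8 and 196 TPM in vegetal and 1.23, 2.13 and 2.35 TPM in animal libraries. The smallest ratio was 100.8 for the first of these models and 58.8 for the other. At the edge of the list, Xetrov90024004m.g (rank 100) had a smallest ratio of 2.097, and Xetrov90006949m.g, the next model and no member, had one of 2.081. The list has no gap there.

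The most abundant members in vegetal blastomeres showed how different the bias can be at a high level. Xetrov90020842m.g (rank 23) had 1909, 1884 and 1130.2 TPM in the vegetal libraries and 199.7, 224 and 100.1 TPM in the animal ones. Xetrov90002089m.g (rank 99) had 1015, 1081 and 1958 TPM in the vegetal libraries and 478, 477 and 408 TPM in the animal ones. Vegetal and animal libraries did not overlap for either model; within each replicate the selection fixes this for every member.

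Whole embryos were not used in the ranking and lay between both blastomere types. A whole embryo holds both types, and the members were chosen as higher in vegetal blastomeres. A value in between is therefore largely set in advance and adds little to the ranking. It was not counted for the other models. The whole-embryo mean was between the animal and the vegetal mean for 100 of 100 members. Within replicates this held for 100, 98 and 93 members in replicates 1, 2 and 3. The median position on the way from the animal to the vegetal value was 48.95%, 42.3% and 40.03%. Among vegetal replicates the median coefficient of variation was 32.3% for members and 37.4% for other models. The same vegetal values entered the ranking, and members were more abundant there. This comparison therefore does not measure how reproducible the members are.

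**Figure D1:**
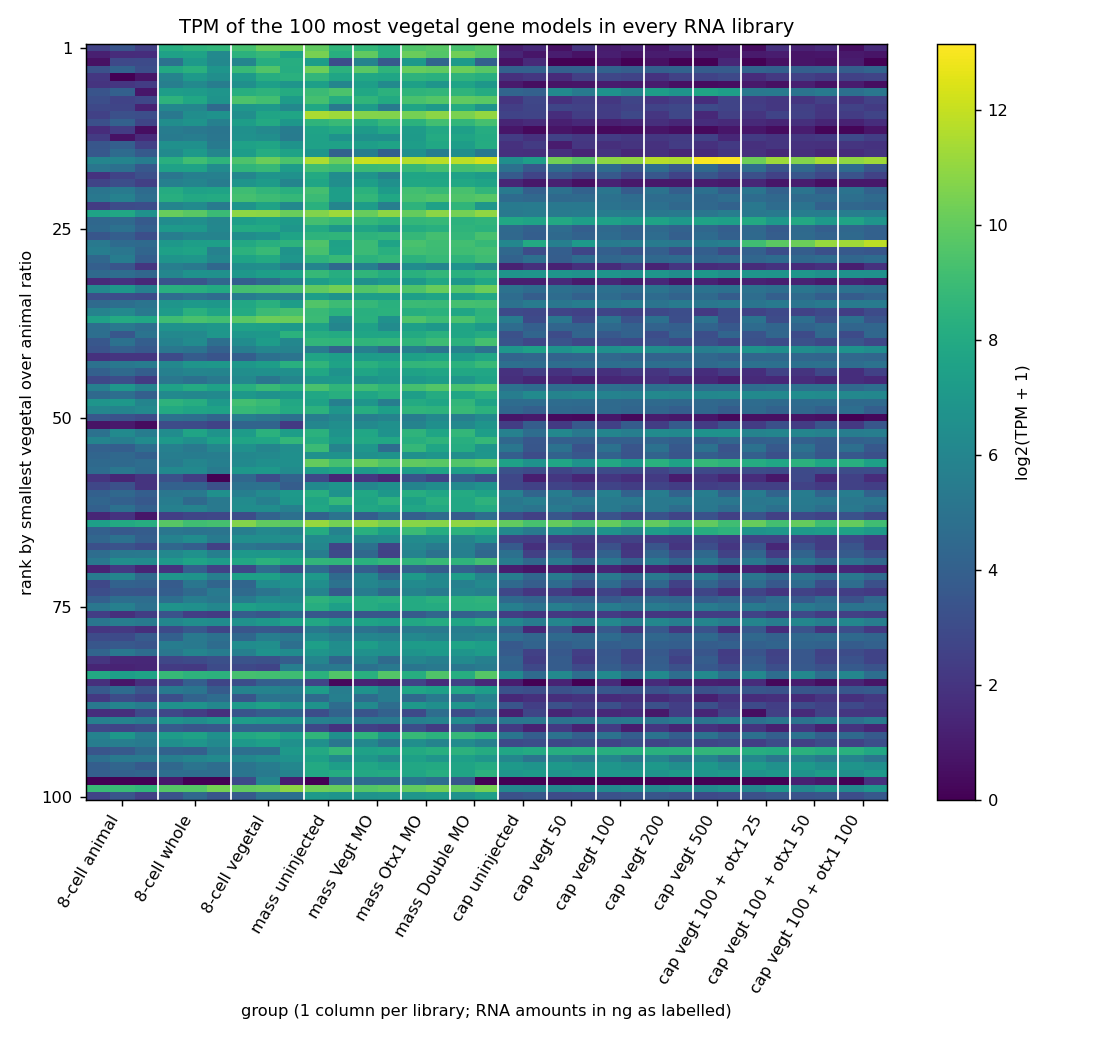
Abundance of each of the 100 members (rows, ordered by rank) in each of the 33 RNA libraries (columns, grouped by sample type), as log2(TPM + 1). Vegetal blastomeres and all 8 vegetal masses are bright and animal blastomeres and caps are dark for most rows; among the rows that turn brighter across injected caps are Xetrov90002928m.g (rank 16), Xetrov90013341m.g (rank 27) and Xetrov90020286m.g (rank 7).

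The members were still abundant in the vegetal mass at stage 10.5. They held 3.79% and 2.55% of all TPM in the 2 uninjected masses, both above the 3 vegetal blastomere libraries. The mean level in uninjected masses was at least 50% of the vegetal blastomere level for 88 of the 100 members, and 79.5% of the other models met the same limit. It was under 10% for 0 members and for 1.7% of the other models. At least a 2-fold higher level was found for 31 members and 18.3% of the other models. The share of members that persisted was thus near that of the other models. The vegetal levels entered the choice of members, so these ratios are not independent of it, and the libraries do not separate maternal RNA that was kept from RNA newly made by stage 10.5.

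The median ratio of mass to vegetal blastomere (mean TPM + 1) was 1.48 for the members and 0.968 for the other models. It ranged from 0.228 to 15.3 among the members, so persistence was not uniform. Xetrov90015143m.g (rank 10) had the highest ratio, with 90.6, 204 and 213 TPM in vegetal blastomeres and 2825 and 2367 TPM in uninjected masses. Xetrov90009852m.g (rank 56) followed with a ratio of 9.55, from 73.5, 93.6 and 92.3 TPM to 1062 and 606 TPM. For both models every mass library was above every vegetal blastomere library.

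The members that fell most kept part of their level in 1 mass and little in the other. Xetrov90015764m.g (rank 68) had 129, 121 and 114 TPM in vegetal blastomeres and then 47.0 and 6.88 TPM in uninjected masses 1 and 2, a ratio of 0.228. Xetrov90009838m.g (rank 37) had 894, 1189 and 1123 TPM in vegetal blastomeres and then 504 and 80.4 TPM, a ratio of 0.27. Neither model's masses overlapped with its blastomere libraries. Without uninjected mass replicate 1, 75 members were at 50% or more and 5 were under 10%. The other models were not counted without that library, so this drop cannot be called particular to the members.

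**Figure D2:**
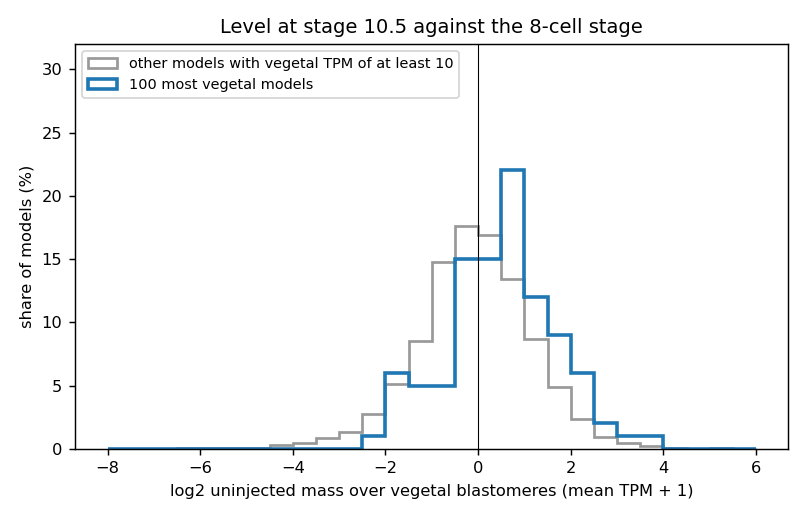
Distribution of the log2 ratio of uninjected mass to vegetal blastomeres (mean TPM + 1; n = 2 and 3 libraries) for the 100 members and the 7881 other models, as percent of each set in bins of the same width. The middle 50% of members lay between -0.14 and 1.23 and that of the other models between -0.79 and 0.70.

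The members were far more abundant in the mass than in the cap at the same stage. Uninjected masses were both above both uninjected caps, and at least 2-fold higher on average, for 86 of 100 members and for 20.1% of the other models. The opposite held for 1 member and for 11.9% of the other models. The median ratio of mass to cap was 11.1 for members and 1.07 for the other models. A ratio of at least 4 was reached by 75 members (6.28% of the other models), at least 10 by 53 (1.15%), and at least 50 by 11 (0.0508%, or 4 models). With injected explants included, the lowest of all 8 masses was above the highest of all 16 caps for 86 members and 25.3% of the other models, and the reverse held for 0 members and 14.7%.

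Xetrov90015143m.g had the highest ratio of mass to cap, 411, with 2825 and 2367 TPM in uninjected masses against 5.22 and 5.43 TPM in uninjected caps. Xetrov90012705m.g followed with 394, from 1378 and 297 TPM in masses against 1.54 and 0.72 TPM in caps. The top-ranked Xetrov90030636m.g had 991 and 388 TPM in masses and 1.06 and 1.83 TPM in caps. The masses and caps of these 3 models were separated by a wide margin although the masses of the last 2 differed strongly from each other.

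Xetrov90000785m.g (rank 41) was the exception. It was vegetal at the 8-cell stage, with 46.6, 64.8 and 58.1 TPM in the vegetal libraries and 9.2, 14.5 and 11.1 TPM in the animal ones. At stage 10.5 it had 43.1 and 15.8 TPM in uninjected masses and 117 and 178 TPM in uninjected caps, a ratio of mass to cap of 0.205. In caps with 500 ng of vegt RNA it had 48.8 and 57.4 TPM, below both uninjected caps. Xetrov90008209m.g (rank 58) had the next lowest ratio, 1.07, and was low in both tissues, with 6.21 and 1.65 TPM in masses and 6.07 and 1.17 TPM in caps.

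Stronger bias at the 8-cell stage went with a stronger difference between the explants. In ranks 1 to 25, 26 to 50, 51 to 75 and 76 to 100 the median ratio of mass to cap was 37.5, 17.2, 5.82 and 3.53. The number of members higher in the mass was 25, 23, 20 and 18 in these 4 rank groups. Median abundance in vegetal blastomeres fell in the same order, at 210, 162, 82.3 and 48.1 TPM. The rank groups thus differed in abundance as well as in bias, and which of these went with the ratio of mass to cap was not tested. Persistence had no such order: the median ratio of mass to vegetal blastomere was 1.43, 1.497, 1.46 and 1.38. Across the 100 members, the log2 ratio of vegetal to animal blastomeres correlated with the log2 ratio of mass to cap at Pearson r = 0.68 and Spearman rho = 0.63; across the 7881 other models the values were 0.26 and 0.30. These are descriptions across models, which share the libraries and are not independent. The middle 50% of the vegetal to animal log2 ratio ran from 1.88 to 3.27 in members and from -0.25 to 0.23 in other models. A narrower spread can lower a correlation, so the values of members and other models are not directly comparable.

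**Figure D3:**
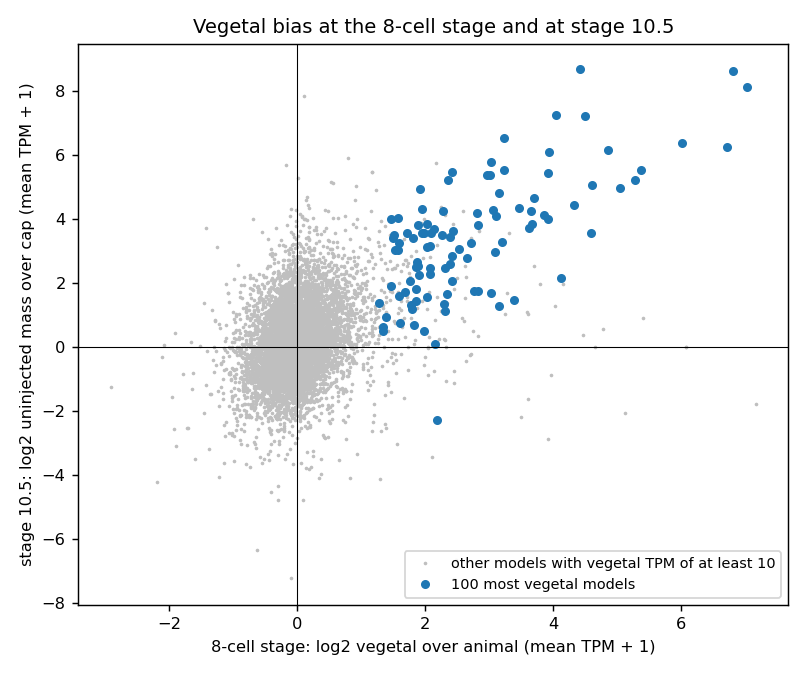
Each point is a gene model, with the log2 ratio of vegetal to animal blastomeres at the 8-cell stage on the horizontal axis and the log2 ratio of uninjected mass to uninjected cap at stage 10.5 on the vertical axis (means of 3 and 2 libraries, TPM + 1). The members span 1.28 to 7.02 horizontally, as the selection sets, and -2.29 to 8.68 vertically; the middle 50% of the other models lies between -0.56 and 0.85 vertically.

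The low level of the members in caps was close to that in animal blastomeres. Their median was 15.6 TPM in uninjected caps, and the median ratio of cap to animal blastomere was 0.807, against 0.866 for the other models. The cap was at least 2-fold above the animal blastomere for 23 members (18.3% of the other models) and at or under 50% of it for 33 (27.4%). For comparison, the rule was turned around to take the 100 most animal models. Their bias was weaker, with smallest ratios of animal to vegetal TPM from 3.46 down to 1.45. The members' smallest ratios ran from 100.8 down to 2.097, so the lists are not matched in bias. Of the 100 most animal models, 42 were higher in the cap and 8 higher in the mass at stage 10.5, and their median ratio of mass to cap was 0.553. They held 1.28% of TPM in animal and 0.572% in vegetal blastomeres, then 1.08% in uninjected caps and 0.514% in uninjected masses.

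**Figure D4:**
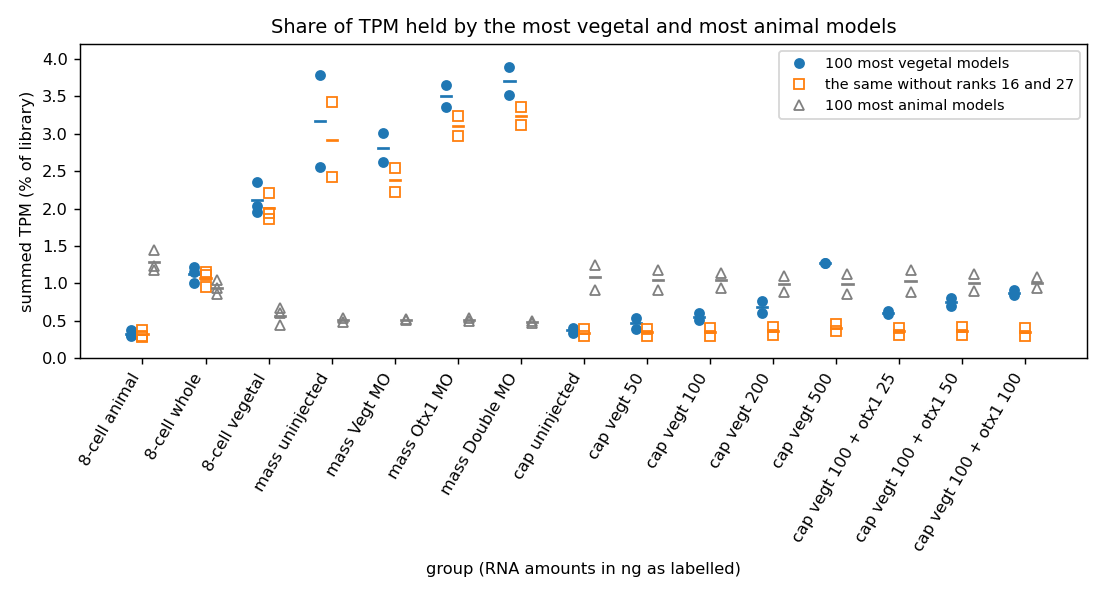
Summed TPM, as percent of each library, of the 100 members, of the members without Xetrov90002928m.g and Xetrov90013341m.g (ranks 16 and 27), and of the 100 most animal models. Each marker is a library (n = 3 for 8-cell groups, n = 2 for explants) and each dash a group mean; members hold at least 2.55% in every mass and at most 1.28% in any cap, and without those 2 models the caps with 500 ng of vegt RNA drop from 1.28% to 0.407% on average.

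The next question was whether the members depend on Vegt or Otx1 in the vegetal mass. All 100 members could be tested there with edgeR's quasi-likelihood test, with Benjamini-Hochberg adjustment over all 16269 features and a threshold of 0.05. In Vegt MO, 0 members were called (0.0123% of all features called; 5 members and 5.38% of features at unadjusted p under 0.05; smallest adjusted p 0.45; DESeq2 called 1, and 1.2% of features; limma called 0). In Otx1 MO, 0 members were called (0.0% called; 2 members and 5.08% of features at unadjusted p under 0.05; DESeq2 and limma 0). In Double MO, 0 members were called (0.0615% called; 5 members and 8.82% of features at unadjusted p under 0.05; DESeq2 and limma 0). The 3 comparisons share the uninjected masses. Across features, same-numbered masses deviated together, but the median shift of the members was not shared by the groups. Their median log2 ratio of number 1 to number 2 was 0.81 in uninjected masses and 0.28 in Vegt MO masses. It was -0.12 in Otx1 MO and -0.17 in Double MO masses. Fitting the replicate number as a block gave 2, 0 and 2 called members, where 2.63%, 1.67% and 6.98% of all features were called.

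The members called with the block in Vegt MO were both lower (1.56% of features were called lower). Xetrov90003543m.g (rank 35) had 772 and 522 TPM in uninjected masses and 438 and 322 TPM in Vegt MO masses. With the block its log2 fold change was -0.80 (SE 0.15, edgeR adjusted p = 0.024). Xetrov90014830m.g (rank 32) had 159 and 239 TPM in uninjected and 96.1 and 138 TPM in Vegt MO masses, a log2 fold change of -0.80 (SE 0.13, edgeR adjusted p = 0.015 with the block). Both Vegt MO libraries were below both uninjected libraries for each model. In Double MO masses the same models had 625 and 567 TPM, and 124 and 227 TPM, and were not called. In Otx1 MO masses they had 492 and 486 TPM, and 130 and 233 TPM, and were not called either. Both Otx1 MO libraries of Xetrov90003543m.g were below both of its uninjected libraries, while those of Xetrov90014830m.g overlapped with them.

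With the block, Double MO raised 1 member and lowered 1 (2.93% and 4.06% of features). Xetrov90008931m.g (rank 30) had 60.2 and 21.3 TPM in uninjected and 105 and 60.04 TPM in Double MO masses, so the groups overlapped, and its log2 fold change was 1.01 (SE 0.24, edgeR adjusted p = 0.048 with the block). Xetrov90016913m.g (rank 24) had 584 and 459 TPM in uninjected and 349.7 and 388 TPM in Double MO masses, with no overlap and a log2 fold change of -0.61 (SE 0.15, edgeR adjusted p = 0.044 with the block). Its Vegt MO masses, at 416 and 341 TPM, and Otx1 MO masses, at 416 and 444 TPM, were also below both uninjected masses but were not called. The share of members called with the block was 2% in Vegt MO, near the 2.63% of all features. In Double MO it was 2%, against 6.98% of all features.

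As a set, the members leaned lower in Vegt MO masses and higher in the others, but these medians depended on the uninjected libraries. The median log2 fold change of the members was -0.19 in Vegt MO (all features -0.02), 0.14 in Otx1 MO (all features -0.03) and 0.12 in Double MO (all features -0.01). It was negative for 87 members in Vegt MO, against 52.5% of all features, and positive for 61 and 65 in the other comparisons. The uninjected masses themselves differed: 44 members were at least 2-fold higher in replicate 1 than in replicate 2 and 5 the other way around, against 15.7% and 2.11% of the other models. Without uninjected mass replicate 1, the medians were 0.10, 0.57 and 0.64, so the Vegt MO value changed sign. Without uninjected mass replicate 2 they were -0.39, -0.03 and 0.03, so the Otx1 MO value changed sign.

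The medians were also taken within replicate numbers. Against the uninjected mass of its own number, Vegt MO had a median of -0.34 over the members in number 1, with 89 lower, and of 0.0064 in number 2, with 48 lower (log2 of TPM + 1). The other models had medians of 0.02 and 0.05. Otx1 MO had medians of -0.09 and 0.67 (other models 0.06 and 0.17), and 40 members and 12.7% of the other models were at least 2-fold higher in number 2. Double MO had medians of -0.06 and 0.70 (other models 0.09 and 0.15), with 37 members and 10.9% of the other models at least 2-fold higher in number 2. The medians thus differed between numbers for each morpholino, while members above and below the uninjected mass were found in both numbers.

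**Figure D5:**
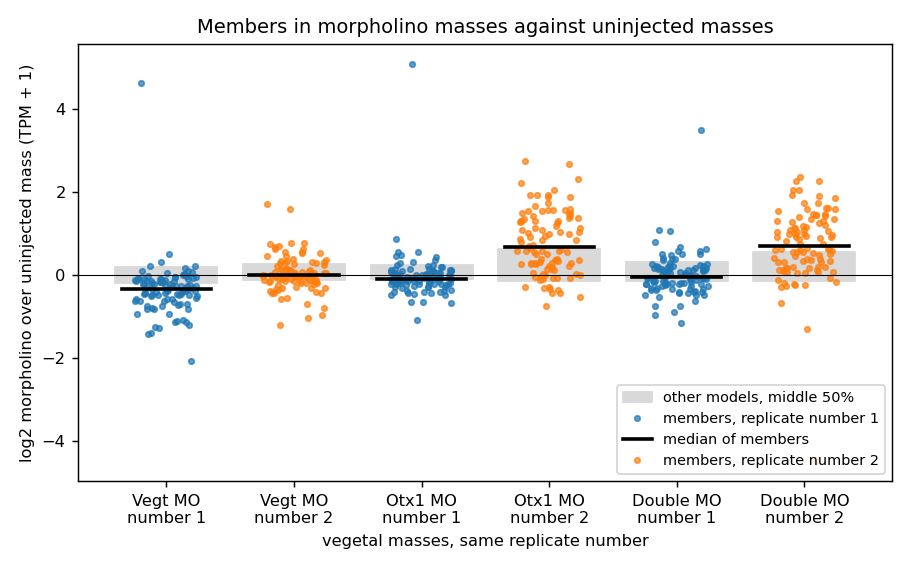
Log2 ratio of each morpholino mass to the uninjected mass of the same replicate number (TPM + 1) for the 100 members (points), with their median (black line) and the middle 50% of the 7881 other models (grey). The median member lies below the grey range in Vegt MO and Otx1 MO number 1 (medians -0.34 and -0.09) and above it in Otx1 MO and Double MO number 2 (medians 0.67 and 0.70); the highest points of number 1 belong to Xetrov90030430m.g (rank 98), listed at 0 in that uninjected mass.

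Counts of members whose libraries did not overlap with the uninjected masses were near or below those of the other models. Vegt MO masses were both below both uninjected masses for 11 members (9.09% of the other models) and above them for 2 (14.9%). Otx1 MO masses were below for 4 (10.7%) and above for 19 (25.0%). Double MO masses were below for 3 (11.3%) and above for 16 (23.1%).

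The morpholinos were also compared with each other, which does not involve the uninjected masses. Vegt MO masses were both below both Otx1 MO masses for 46 members and above for 1, where 29.5% and 19.1% of the other models were. The median log2 difference of the members was -0.35 (all features 0.02), and 76 of 100 were negative against 48.3% of all features. The fit without the block called 0 members (0.129% of features called; 6 members and 8.55% of features at unadjusted p under 0.05; DESeq2 and limma 0). With the block 8 members were called, all 8 lower in Vegt MO, where 9.13% of all features were called and 5.51% were called lower.

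Xetrov90015764m.g, the member that fell most by stage 10.5, also had the greatest difference among these 8. It had 20.8 and 4.9 TPM in Vegt MO masses against 55.8 and 28.8 TPM in those with Otx1 MO, a log2 difference of -1.90 (SE 0.39, edgeR adjusted p = 0.033 with the block). Xetrov90001407m.g (rank 48) had 113 and 46.9 TPM in Vegt MO masses against 259.6 and 208 TPM in those with Otx1 MO, a log2 difference of -1.63 (SE 0.32, edgeR adjusted p = 0.034 with the block). The groups did not overlap for either model. The uninjected masses of Xetrov90001407m.g, at 190.4 and 49.6 TPM, overlapped with its Vegt MO masses.

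The top-ranked Xetrov90030636m.g had 411 and 299 TPM in Vegt MO masses, 743 and 857 TPM in Otx1 MO masses and 645 and 849 TPM in Double MO masses. Its Vegt MO libraries were below both Otx1 MO libraries, with a log2 difference of -1.10 (SE 0.39) that did not pass the test (edgeR adjusted p = 0.49, and 0.17 with the block). Its uninjected masses, 991 and 388 TPM, overlapped with every morpholino group. Xetrov90015143m.g had 1695 and 1595 TPM in Vegt MO masses, 1333 and 1881 TPM in those with Otx1 MO, and 1449 and 2077 TPM in Double MO masses. All 6 libraries were below both of its uninjected masses, but none of the 3 differences passed the test (edgeR adjusted p between 0.57 and 0.93, and between 0.059 and 0.11 with the block).

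The caps show whether vegt RNA raises the members outside the vegetal cells. Of the 100 members, 96 passed the filter on low counts and could be tested among 16360 features. In caps with 500 ng of vegt RNA, 4 members rose and 0 fell by edgeR's test (0.801% of all features were called, 0.697% as higher). With the replicate block 6 rose and 2 fell, where 4.22% of features were called, 2.81% as higher and 1.41% as lower. DESeq2 called 8 members, 6 higher and 2 lower, and 2.37% of features (299 higher and 88 lower). With limma 4 members were called, 3 higher and 1 lower, and 238 of the 16360 features (203 higher and 35 lower). The median log2 fold change of the tested members was -0.05, against -0.02 for all features. Most members were thus not called in response to vegt RNA in the cap.

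Xetrov90002928m.g (rank 16) rose most and in step with the injected amount. It had 92.9 and 163 TPM in uninjected caps, 1316 and 864 TPM with 50 ng, 1919.5 and 2090.2 TPM with 100 ng, 3391 and 2938 TPM with 200 ng, and 8218 and 9061 TPM with 500 ng of vegt RNA. The log2 fold change at 500 ng was 6.09 (SE 0.56, edgeR adjusted p = 0.0023). The files do not say whether its reads come from the injected RNA, and the model is not identified here as vegt. In the masses it had 2959 and 1183 TPM without injection, 4174 and 3866 TPM with Vegt MO, 3192 and 3521 TPM with Otx1 MO, and 3470 and 4889 TPM with Double MO. Every morpholino library was above both uninjected masses, but no difference passed the test (edgeR adjusted p = 0.95, 0.94 and 0.58, and 0.33, 0.41 and 0.20 with the block).

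Xetrov90020286m.g (rank 7) also rose with each step of vegt RNA. It had 18.8 and 16.1 TPM in uninjected caps, then 75.4 and 42.0 TPM, 105 and 63.0 TPM, 161 and 112 TPM, and 203 and 163.7 TPM from 50 to 500 ng. The log2 fold change at 500 ng was 3.44 (SE 0.31, edgeR adjusted p = 0.0023). With 25, 50 and 100 ng of otx1 RNA added to 100 ng of vegt RNA, it had 38.6 and 39.9 TPM, 32.04 and 42.3 TPM, and 27.9 and 35.8 TPM. All 6 of these caps were below both caps with 100 ng of vegt RNA alone, but the trend did not pass the test (edgeR adjusted p = 0.46, and 0.066 with the block). In the masses it had 489 and 674 TPM without injection and 223 and 348 TPM in Vegt MO. Both Vegt MO libraries were below both uninjected libraries, with a log2 fold change of -1.06 (SE 0.34) that did not pass the test (edgeR adjusted p = 0.68, and 0.10 with the block). So were its Otx1 MO masses, at 378 and 402 TPM, and its Double MO masses, at 368 and 273 TPM. The lower level was thus not particular to Vegt MO.

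The other members called at 500 ng ranked 65 and 52. That at rank 65 had 65.7 and 42.4 TPM in uninjected caps and 293 and 359 TPM at 500 ng, and that at rank 52 had 53.9 and 24.5 TPM and then 103.7 and 103.1 TPM. A trend over the vegt amounts called the same 4 members as rising and 1 as falling (1.19% of features called, 1.01% as higher and 0.183% as lower). With the block it called 6 and 2 (5.06% of features, 3.29% and 1.77% by direction), and DESeq2 called 8 members and 2.71% of features. By limma 5 members were called, 4 higher and 1 lower, and 288 of 16360 features. The model that fell in the main fit of the trend, Xetrov90002723m.g (rank 22), had 41.8 and 43.6 TPM in uninjected caps and 21.0 and 16.6 TPM at 500 ng, with no overlap. Its slope was -0.35 per unit of log2((ng + 50)/50) (SE 0.072, edgeR adjusted p = 0.049), and the call was lost without any 1 of the 10 caps of the trend. The count of 5 became 3 without 200 ng replicate 1, 500 ng replicate 1, uninjected replicate 2 or 500 ng replicate 2.

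A trend over the otx1 amounts at 100 ng of vegt RNA called 0 members (0.0% of features called; 4 members and 2.59% of features at unadjusted p under 0.05; DESeq2 called 2 members and 0.293% of features, limma 1 and 0.0672%). With the block 1 member was called, as higher (0.752% of features called, 0.403% as higher). This was Xetrov90013341m.g (rank 27), which had 42.7 and 48.7 TPM in caps with 100 ng of vegt RNA alone and 553 and 898 TPM, 1179 and 2219.7 TPM, and 2467 and 3683 TPM with 25, 50 and 100 ng of otx1 RNA. Its slope was 2.64 per unit of log2((ng + 25)/25) (SE 0.24, edgeR adjusted p = 0.0054 with the block, and 0.21 without it). Whether its reads come from the injected RNA was not tested, and the model is not identified here as otx1. In uninjected caps it had 67.7 and 257 TPM, and in uninjected masses 731 and 179.8 TPM, so the tissues overlapped.

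Most of the rise of the set in injected caps lay in 2 models. The members together held 0.373% of TPM in uninjected caps, 0.467%, 0.554%, 0.684% and 1.28% with 50, 100, 200 and 500 ng of vegt RNA, and 0.610%, 0.751% and 0.879% with 25, 50 and 100 ng of otx1 RNA added. Without Xetrov90002928m.g and Xetrov90013341m.g the other 98 held 0.344% in uninjected caps, 0.407% at 500 ng of vegt RNA and 0.348% at 100 ng of otx1 RNA. In vegetal masses the members held between 2.55% and 3.89%, so no injected cap reached the level of a mass.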

How the data were processed

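TPM and estimated counts of 3 RNA experiments were deposited by the authors (the latter are RSEM's expected counts, not all whole numbers). The libraries were Smart-seq2 libraries, per the labels' protocols. RSEM 1.2.12 and Bowtie2 2.2.7 were used, per the submitters' processing notes; the genome build is not given in the sources used here. Members with near-identical copies elsewhere may share reads with them, which was not tested. The peak lists were not used here.

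The members and lists were chosen with earlier results of these data known. Members were ranked on TPM. Counts were rounded and tested with edgeR 4.0.16 in R 4.3.3 (quasi-likelihood, robust, TMM, filterByExpr, group means per table) over the features of a table that passed the filter (16269 of 32234 in masses, 16360 in caps), with Benjamini-Hochberg adjusted p under 0.05. The edgeR fit without the block was tested on simulated counts with planted changes of several-fold. Smaller changes and the fit with the block were not simulated. DESeq2 1.42.0 and limma 3.58.1 on log2(TPM + 1) were alternatives. Dose scores were log2((ng + 50)/50) for vegt and log2((ng + 25)/25) for otx1. The SE beside an edgeR log2 difference or slope is its absolute value divided by the square root of the test's F statistic. It was thus derived from the test and is no separate estimate. Counts of persistent or tissue-biased members compared mean TPM and have no test.

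The design text calls the explants biological duplicates, and p-values measure the spread between them. Replicate numbers were taken to pair libraries: the differences of number 1 and number 2 correlated between groups with r from 0.71 to 0.82 in masses (6 pairs of groups, 12692 features) and from 0.67 to 0.89 in caps (28 pairs, 11939 features). The fit without the block is the main one, so differences between replicate numbers count as spread in it. Named models were those at ranks 1, 2 and 100, the next model, the most abundant in vegetal blastomeres, those with the highest and lowest ratios, and up to 2 called per direction in each test (from the blocked fit where the main fit called 0). Xetrov90030430m.g, the members at ranks 65 and 52, and values given for a named model in comparisons that did not name it were chosen after the values were seen. Preset gene lists need symbols and were not used.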

Additional observations from a re-analysis of the deposited data

How the results depend on the processing

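Of 111 alternatives of 11 counts, 92 stayed within 1.5 times the reported count. Some of these could not move a count. Leaving out a cap cannot change a count that uses no cap, for example. Likewise, a fit that called no feature at all could call no member. The 92 therefore overstates how stable the counts are. Turned signs were counted only for single named models, where 0 of 118 alternatives turned the direction. These models had been called with the largest changes in these same data, so a kept sign was likely from the start. Medians over the members did turn sign in Vegt MO and Otx1 MO when an uninjected mass was left out. The list itself depends on the ranking: 98 and 90 members were shared with pseudocounts of 0.1 and 5, 70 with the mean of the 3 log2 ratios, 96 and 90 with a minimum of 5 or 20 TPM, and 66, 87 and 79 without replicate 1, 2 or 3. Of the first 50 members, at least 49 were kept each time. With members ranked without replicate number 3, an alternative chosen after seeing the data, 1 member was under 10% in the mass and 2 were higher in the cap.

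The replicate block, which the pairing check bears on, gave 2 called members in Vegt MO (2.63% of all features called). It gave 2 in Double MO (6.98%) and 8 between Vegt MO and Otx1 MO (9.13%). In caps it gave 8 at 500 ng of vegt RNA (4.22%), 8 in the vegt trend (5.06%) and 1 in the otx1 trend (0.752%). DESeq2 called 1 in Vegt MO (1.2% of all features called), 8 at 500 ng (2.37%), 8 in the vegt trend (2.71%) and 2 in the otx1 trend (0.293%), and limma called 1 in the otx1 trend (0.0672%). At 500 ng limma's count of 4 members equalled the main one, but 3 were higher and 1 was lower. The block changed no other count of members called. The cause was not tested.

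Leaving out 1 library at a time, between 0 and 5 members were under 10% in the mass, 75 to 92 at 50% or more, and 83 to 93 higher in the mass than in the cap. The other models were not counted in this way. The vegt trend then called 3 to 5 members and the 500 ng comparison 3 to 4; the lone sample left in a group is assumed to vary like the other groups. The median over members at 500 ng turned to 0.07 without uninjected cap replicate 1. With 2 libraries per group, an effect that was not called was not detectable in the fit used at this replication, not absent. The main fit leaves the pairing out. With the block and the same libraries, features called went from 2 to 428 in Vegt MO, from 0 to 272 in Otx1 MO and from 10 to 1136 in Double MO. Calls thus depended on the fit as well as on the replication.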

Other observations

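The members did not stand out in length as the tables allow it to be read. Relative effective length, the ratio of estimated count to TPM with the median of all models at 1, was 1.12 in the median for members, 0.986 for the other models and 1.12 for the 100 most animal models. This is a description of the models' annotation and of counting, not of RNA.

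Xetrov90030430m.g (rank 98) had a pattern unlike the other members. It was listed at 0 in all 3 animal libraries and had 7.16, 60.8 and 1.16 TPM in vegetal libraries. In the masses it was listed at 0 and at 21.6 TPM without injection, at 23.9 and 24 TPM in Vegt MO, at 33.2 and 25.1 TPM in Otx1 MO, and at 10.3 TPM and 0 in Double MO. It was listed at 0 in both uninjected caps.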
